A study of Mus musculus with 6 samples.

Results

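Chemokines are small secreted proteins that bind G protein-coupled receptors and steer the migration of leukocytes. They are named after the spacing of the cysteines near their N terminus, as CC (Ccl genes), CXC (Cxcl genes) or C (Xcl1) chemokines. Helper T cells make several of them after activation, and Ccl20, the ligand of CCR6, is known as a product of TH17 cells. The 10 mouse genes described here encode ligands of CCR1 (Ccl3, Ccl5 and Ccl9), CCR4 (Ccl17 and Ccl22), CCR8 (Ccl1), CCR6 (Ccl20), XCR1 (Xcl1) and CXCR3 (Cxcl10), and the macrophage inflammatory protein Ccl4. They were taken by symbol, 10 of 47725 genes in the count table, and the list was selected on the counts of the 6 libraries, since it was drawn up with those counts and the difference between the groups in view. Their values in that contrast are therefore a description, and their calls support nothing about the choice of genes.

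RNA came from wild-type C57BL/6 mouse CD4+ T cells that started as naive cells and spent 3 days in TH17-polarizing medium. All cultures held anti-CD28, anti-IFN-γ and anti-IL-4 antibodies and the cytokines TGF-β1, IL-6 and IL-23, so that the interferon and IL-4 signals that drive other helper fates were blocked in both groups. In 3 libraries the cells had been treated with CKBA, a derivative of the boswellic acid AKBA, and in 3 with the solvent DMSO. The CKBA dose, the age of the mice and whether replicates were separate cultures were not given in the sources used here, so the spread behind each p-value is that of the 6 libraries and may be technical. The labels name epidermis as tissue, but all 10 T cell markers were abundant, with a summed level of 2877 to 3662 CPM, while 10 of 11 keratinocyte markers stayed under 1 CPM in every library. Libraries held 19838347 to 25331863 counts. Replicates 1 and 2 were near each other in both groups (their chi-square averaged 2.83 a gene with CKBA and 3.33 with DMSO), and replicate 3 stood apart from them, at 34.4 to 37.8 a gene. In bulk RNA, fewer cells that make a transcript and less transcript per cell cannot be told apart.

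To show the start regions of the genes that the results turn on, the 150 bases upstream of the RefSeq start (GRCm38.p6) are given 5′ to 3′ on the strand of the gene. Capitals mark the letters of motifs bound by NFAT, NF-κB and AP-1, transcription factors of T cell activation. The NFAT letters GGAAA read TTTCC where they lie on the other strand. Cxcl10 is included as a gene that did not pass the test.

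Xcl1, chr1:164935523-164935672, minus strand: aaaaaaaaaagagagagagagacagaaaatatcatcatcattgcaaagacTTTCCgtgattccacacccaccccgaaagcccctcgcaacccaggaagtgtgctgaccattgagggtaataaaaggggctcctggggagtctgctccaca

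Ccl1, chr11:82179813-82179962, minus strand: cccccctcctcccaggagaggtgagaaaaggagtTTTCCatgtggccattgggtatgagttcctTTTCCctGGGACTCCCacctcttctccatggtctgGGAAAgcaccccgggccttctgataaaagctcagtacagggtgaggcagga

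Ccl22, chr8:94745534-94745683, plus strand: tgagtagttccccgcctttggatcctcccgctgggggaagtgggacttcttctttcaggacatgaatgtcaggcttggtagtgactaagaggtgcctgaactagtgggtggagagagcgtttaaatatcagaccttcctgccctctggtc

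Ccl3, chr11:83649379-83649528, minus strand: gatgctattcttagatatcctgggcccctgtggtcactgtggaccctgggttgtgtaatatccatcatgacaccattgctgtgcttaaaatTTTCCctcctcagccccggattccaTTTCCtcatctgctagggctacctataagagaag

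Ccl20, chr1:83116616-83116765, plus strand: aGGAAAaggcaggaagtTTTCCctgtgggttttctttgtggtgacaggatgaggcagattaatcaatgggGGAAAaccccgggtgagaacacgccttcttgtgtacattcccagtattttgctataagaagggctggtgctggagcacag

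Cxcl10, chr5:92348890-92349039, minus strand: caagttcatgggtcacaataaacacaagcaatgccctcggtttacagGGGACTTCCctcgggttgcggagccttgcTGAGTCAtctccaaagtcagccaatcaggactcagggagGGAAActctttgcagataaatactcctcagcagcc

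Promoters of 8 of the 10 genes were matched. Both strands of the 300 bases from 250 before to 50 after the start were searched. The NFAT core GGAAA was found in 7 of the 8, at 1 to 3 places each, against 61.3% of all 32851 promoters of that length. The κB form GGGANTTCC was found in Cxcl10 only (1.68% of all promoters), and the κB form GGGANNCCC in Ccl1 only (5.66%). The AP-1 motif TGANTCA occurred in Ccl9 and Cxcl10 (7.81% of all), and the CRE motif TGACGTCA and the C/EBP-ATF motif TGATGNAAT in none of the 8 (1.79% and 0.965% of all). In Ccl22, none of these letters occurred. Matches did not overlap each other. The 2 NFAT matches of Cxcl10 that lie farther upstream are outside the printed stretch. The matches describe letters in these windows and no binding.

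With CKBA the chemokine transcripts were more abundant in sum, at 198 to 318 CPM (counts scaled to the TMM library size) against 92.8 to 107 CPM with DMSO. Of the 9 genes abundant enough to test, 6 were past the threshold as higher with CKBA (Xcl1, Ccl1, Ccl22, Ccl3, Ccl4 and Ccl20) and 0 as lower, by edgeR's quasi-likelihood test at an adjusted p under 0.05, where 7.86% of 13928 tested genes were higher and 9.23% lower. In 5 of the 9 all CKBA libraries lay above all DMSO libraries, and in 0 below, against 18.2% and 18.4% of tested genes. Ccl1 passed the filter on low counts through its CKBA libraries alone, so its place among the called genes follows in part from the filter. The median log2 fold change of the 9 was 1.47, beside 0.01 over all tested genes. With the replicate number as a block 5 were called higher, where 13.8% of tested genes were. When replicates 1 and 2 were summed within a group, only Ccl1 and Ccl22 were, where 0.372% of 15037 genes were.

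**Figure D1:**
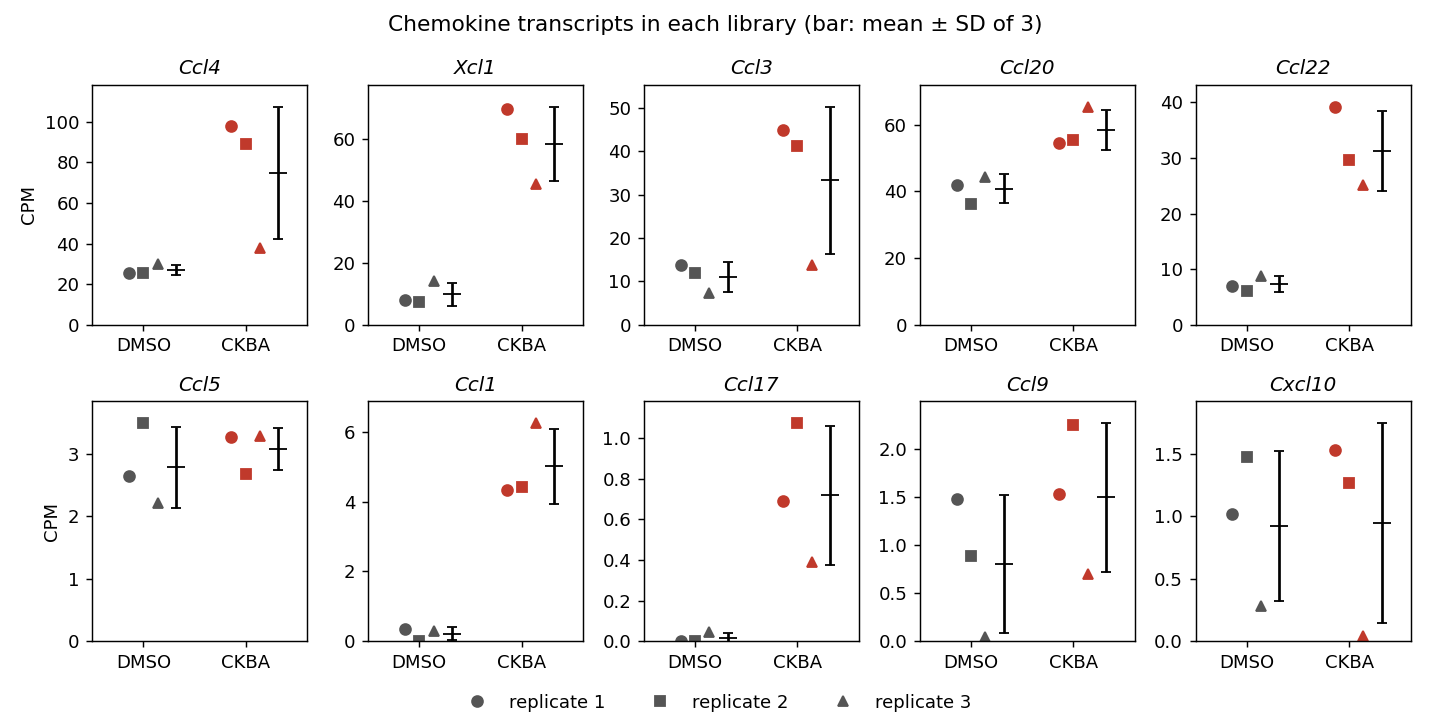
CPM (vertical axes, each from 0) of the 10 chemokine transcripts in each of 6 libraries, by group and replicate, with the mean ± SD of 3 libraries beside the points. Xcl1, Ccl1, Ccl22, Ccl4, Ccl20 and Ccl17 were higher in every CKBA library than in any DMSO library, and Ccl3 in CKBA replicate 3 lay at the level of DMSO replicate 1.

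Xcl1 (ENSMUSG00000026573, GRCm38 chr1:164931644-164935527, minus strand) encodes lymphotactin, which draws the cross-presenting dendritic cells that carry XCR1. It stood at 8.13, 7.31 and 14.2 CPM in DMSO replicates 1, 2 and 3 and at 69.8, 60.0 and 45.7 CPM in CKBA replicates 1, 2 and 3. Every CKBA library was thus above every DMSO library, and in each group replicate 3 lay nearest to the other group. The fitted log2 fold change was 2.56 ± 0.27 (SE), a 5.91-fold difference. The antisense transcript Gm20743 overlaps the gene, and it held 0.147 to 1.46 CPM with DMSO and 0.731 to 4.26 CPM with CKBA. Without strand, reads of the 2 genes cannot be told apart where they overlap, and the part of such reads in the Xcl1 value was not tested.

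Ccl1 (ENSMUSG00000020702, chr11:82176657-82305690, minus strand), the ligand of CCR8 and a product of TH2 cells and regulatory T cells, was nearly silent without the compound. It held 7, 0 and 6 counts in the DMSO libraries and 88, 91 and 160 in the CKBA libraries. These correspond to 0.213 ± 0.188 and 5.01 ± 1.07 CPM (mean ± SD, n = 3 each). The groups did not overlap, and the log2 fold change was 4.53 ± 0.60, the largest among the 9 tested chemokine genes. Its size depends on the prior count at so few DMSO counts. It ranged from 3.96 to 5.07 with 1 library left out, and the authors' deposited value was 3.57. From the summed counts of 13 and 339, the ratio was 24.1, with an exact 95% interval of 13.9 to 45.7 that covers counting error only. The GENCODE locus of Ccl1 spans 129034 bases, and on the minus strand it begins at base 82305690. The RefSeq start region printed above lies inside this locus and not at its beginning.

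Ccl22 and Ccl17 encode the CCR4 ligands MDC and TARC, which attract TH2 cells and regulatory T cells and are best known as products of dendritic cells. The genes lie 58753 bases apart on mouse chromosome 8, with Cx3cl1 between them. Ccl22 (ENSMUSG00000031779, chr8:94745590-94751699, plus strand) stood at 6.97, 6.04 and 8.85 CPM with DMSO and at 39.2, 29.6 and 25.2 CPM with CKBA. No library of a group reached the other group, and the log2 fold change was 2.10 ± 0.21. Ccl17 (ENSMUSG00000031780, chr8:94810453-94812036, plus strand) held 0, 0 and 1 counts with DMSO and 14, 22 and 10 with CKBA. It was too low for the filter and was not tested in the fit used for the other genes. Without the filter its fitted log2 fold change was 5.03 (edgeR adjusted p = 0.00151), a size that depends on the prior count because DMSO held a single count. It passed the filter and was called without replicate 3 of CKBA, of DMSO or of both. It passed without being called when DMSO replicate 1 or 2 was left out or replicates 1 and 2 were summed (edgeR adjusted p = 0.0566, 0.058 and 0.143). In each of these fits it passed the filter through its CKBA libraries alone, so its calls there follow in part from the filter. Its ratio of summed counts was 42.5, with an exact 95% interval of 7.25 to 1714 for counting error. In the authors' deposited table its log2 fold change was 3.47 (FDR 9.81e-06). Cx3cl1, between them, held 1 to 18 counts per library and was not tested.

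Ccl3 and Ccl4 encode the macrophage inflammatory proteins MIP-1α and MIP-1β, which attract monocytes and T cells, and lie 13228 bases apart on chromosome 11 in opposite directions. Ccl4 (ENSMUSG00000018930, chr11:83662584-83664683, plus strand) stood at 25.5, 25.7 and 29.8 CPM with DMSO and at 98.1, 88.9 and 37.6 CPM with CKBA. CKBA replicates 1 and 2 were far above the DMSO libraries, and replicate 3 was above them by a log2 difference of 0.33. Ccl3 (ENSMUSG00000000982, chr11:83647844-83649355, minus strand) stood at 13.8, 11.8 and 7.20 CPM with DMSO and at 44.8, 41.2 and 13.8 CPM with CKBA. CKBA replicate 3 was thus at the level of DMSO replicate 1, and the groups touched. The log2 fold changes were 1.47 ± 0.32 for Ccl4 and 1.60 ± 0.43 for Ccl3.

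Ccl5, Ccl9 and Cxcl10 did not pass the test, and their groups overlapped. Ccl5 (RANTES), a product of memory and cytotoxic T cells, stood at 2.64, 3.48 and 2.21 CPM with DMSO and at 3.26, 2.68 and 3.28 CPM with CKBA, a log2 fold change of 0.15 ± 0.25. It lies in the same chromosome 11 cluster as Ccl9, Ccl3 and Ccl4. Ccl9 ranged from 0.0471 to 1.47 CPM with DMSO and from 0.703 to 2.24 CPM with CKBA (log2 fold change 0.89 ± 0.80). Cxcl10, an interferon-induced ligand of CXCR3, ranged from 0.282 to 1.47 CPM with DMSO and from 0.0391 to 1.53 CPM with CKBA (0.01 ± 0.93). For both Ccl9 and Cxcl10 the lowest library of each group was replicate 3, and both genes held only 1 to 46 counts per library. From the summed counts of 95 with CKBA and 48 with DMSO, the Ccl9 ratio was 1.83, with an exact 95% interval of 1.28 to 2.64 for counting error, so the spread between libraries was wider than the counting error.

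Ccl20 (ENSMUSG00000026166, chr1:83116766-83119167, plus strand) differed least among the 6. It stood at 42.0, 36.1 and 44.3 CPM with DMSO and at 54.4, 55.5 and 65.4 CPM with CKBA. The groups did not overlap, and the log2 fold change was 0.52 ± 0.11, a 1.43-fold difference. Here CKBA replicate 3 was the highest library, unlike for Xcl1, Ccl22, Ccl3 and Ccl4, where it was the lowest of the CKBA libraries. The authors' deposited log2 fold change of Ccl20 was also 0.52 (FDR 0.00531), but they did not mark the gene as significant.

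In the fit over all genes the adjusted p of Ccl22, Xcl1, Ccl1, Ccl4, Ccl20 and Ccl3 were 0.00101, 0.00129, 0.00317, 0.0186, 0.0194 and 0.0389 (edgeR, by the Benjamini-Hochberg method), and those of Ccl9, Ccl5 and Cxcl10 were 0.482, 0.73 and 0.997. Xcl1, Ccl1 and Ccl22 stayed called whichever library was left out. Ccl20 lost its call without CKBA replicate 1 or 2 or DMSO replicate 1 or 2 (adjusted p up to 0.0888 in that edgeR test), as did Ccl4 (up to 0.0946). Ccl3 kept it only without CKBA replicate 3 and reached 0.166 otherwise. With the replicate block Ccl4 was not called (adjusted p = 0.135), and with replicates 1 and 2 summed Xcl1 was at 0.0509, Ccl20 at 0.204, Ccl4 at 0.269 and Ccl3 at 0.317 in the same edgeR test.

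**Figure D2:**
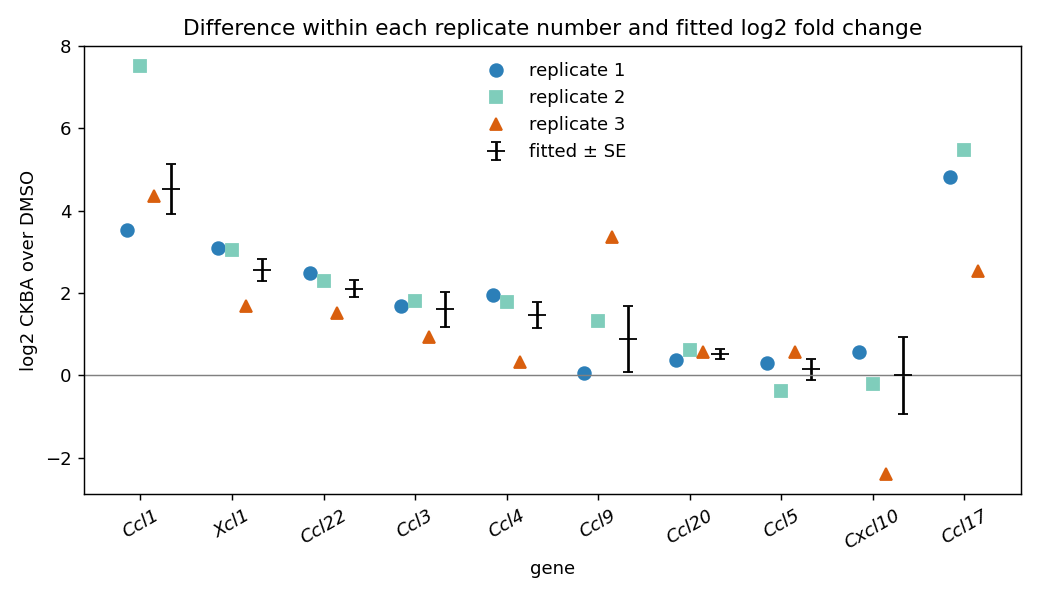
Log2 ratio of CKBA to DMSO (vertical axis) within replicate numbers 1, 2 and 3, computed from counts plus 0.5, with the fitted log2 fold change ± SE where the gene was tested. Points of replicate 3 lie below those of replicates 1 and 2 for Xcl1, Ccl22, Ccl3 and Ccl4, at 1.69, 1.50, 0.94 and 0.33.

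Within the replicate numbers, 10 of 10 chemokine genes were higher with CKBA in replicate 1, 8 of 10 in replicate 2 and 9 of 10 in replicate 3, where 49.7%, 50.3% and 51.0% of all tested genes were. The median log2 ratio of the 10 was 1.82 in replicate 1 and 1.22 in replicate 3. The size in replicate 3 differed by gene. Xcl1 was at 3.10, 3.03 and 1.69 in replicates 1, 2 and 3, Ccl4 at 1.94, 1.79 and 0.33, and Ccl20 at 0.37, 0.62 and 0.56. Only Cxcl10 was lower with CKBA in replicate 3, by a log2 ratio of -2.39 that rests on 6 counts with DMSO and 1 with CKBA.

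Per length, from the authors' FPKM, the order of levels differed between the groups. With DMSO, Ccl4 led at 41.1 ± 4.63 FPKM, followed by Ccl20 at 28.9 ± 3.46, Xcl1 at 19.0 ± 7.66, Ccl3 at 14.3 ± 4.22, Ccl22 at 3.15 ± 0.688 and Ccl5 at 2.90 ± 0.627 (mean ± SD, n = 3). With CKBA, the means of Ccl4 and Xcl1 were level at 112 ± 47.8 and 111 ± 21.3 FPKM. The ratio of Xcl1 to Ccl4 was 0.90, 0.85 and 1.53 in CKBA replicates 1, 2 and 3, so their order differed between libraries. Ccl3 and Ccl20 followed at 43.0 ± 21.6 and 40.9 ± 4.86, then Ccl22 at 13.4 ± 2.87, Ccl5 at 3.19 ± 0.357, Ccl1 at 2.11 ± 0.486 and Ccl17 at 1.39 ± 0.658. Neighbours whose libraries overlapped were Ccl20 and Xcl1, Xcl1 and Ccl3, and Ccl22 and Ccl5 with DMSO, and Ccl4 and Xcl1, Ccl3 and Ccl20, and Ccl1 and Ccl17 with CKBA. Ccl9 and Cxcl10 averaged under 1 FPKM in both groups.

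**Figure D3:**
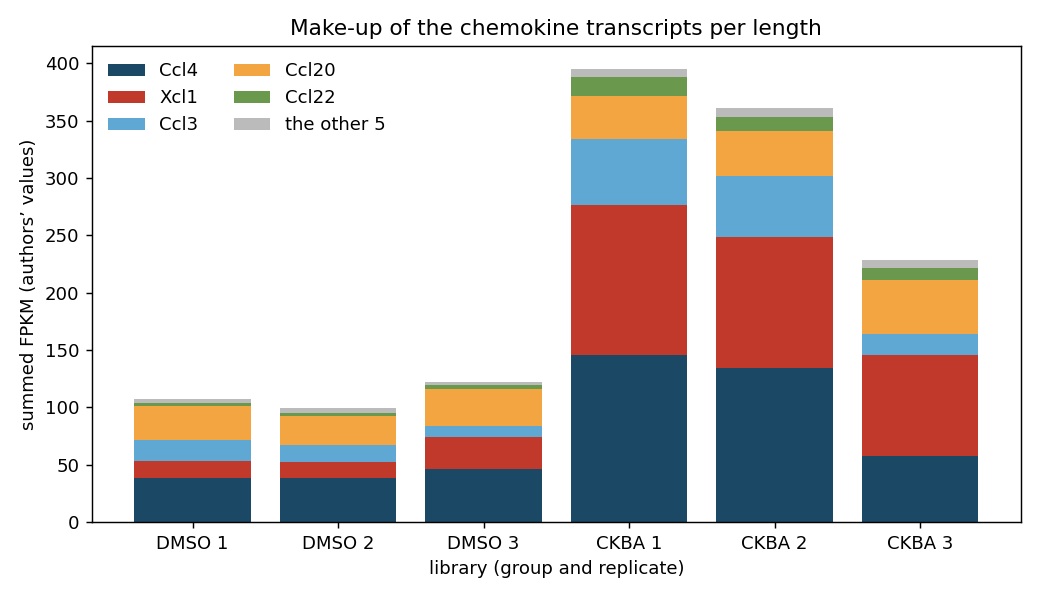
Authors' FPKM of the chemokine transcripts, stacked for each library, with the 5 least abundant genes added together. The sum was 99.9 to 123 FPKM in the DMSO libraries and 229 to 395 in the CKBA libraries, with a larger part from Xcl1 in each CKBA library.

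The make-up of the mixture shifted with the sum. Xcl1 made up 13.9% to 22.7% of the summed chemokine FPKM in the DMSO libraries and 31.6% to 38.6% in the CKBA libraries. Ccl20, the TH17 chemokine, made up 25.2% to 27.2% with DMSO and 9.49% to 20.3% with CKBA, so that its share was smaller although its own level was higher. The share of Ccl5 was 1.93% to 3.59% with DMSO and 0.769% to 1.51% with CKBA, and that of Ccl4 overlapped between the groups, at 35.6% to 38.5% and 25.2% to 37.1%. The ratio of Ccl4 to Ccl3 was 2.14, 2.52 and 4.81 in DMSO replicates 1 to 3 and 2.54, 2.50 and 3.16 in the CKBA replicates.

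The rest of the family was mostly silent. Of 31 other chemokine ligand genes, 13 had no count in any library, 28 stayed under 1 CPM in every library and 5 were abundant enough to test. Of these 5, 0 were called in either direction by edgeR's quasi-likelihood test, where 7.86% of tested genes were higher and 9.23% lower. At an unadjusted p under 0.05, and by DESeq2, it was 0 as well. At such shares 0 of 5 is not unusual. In 1 of the 5 all CKBA libraries lay above all DMSO libraries, and in 0 below, against 18.2% and 18.4% of tested genes. Their median log2 fold change was 0.24. Only Ccl25, which guides T cells to the thymus and small intestine through CCR9, passed 5 CPM, with 15.8, 12.7 and 21.5 CPM in the DMSO libraries and 10.2, 12.5 and 20.0 CPM in the CKBA libraries (fitted log2 difference -0.22 ± 0.28, edgeR adjusted p = 0.627). Its groups overlapped. The summed level of the other ligands was 16.8 to 26.4 CPM with DMSO and 16.2 to 26.8 CPM with CKBA. The CXCR3 ligands Cxcl9 and Cxcl11 and the neutrophil attractants Cxcl1, Cxcl2 and Cxcl5 were among those at or near 0. Ccl27a has near-identical copies that can share its reads, so its value is uncertain.

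**Figure D4:**
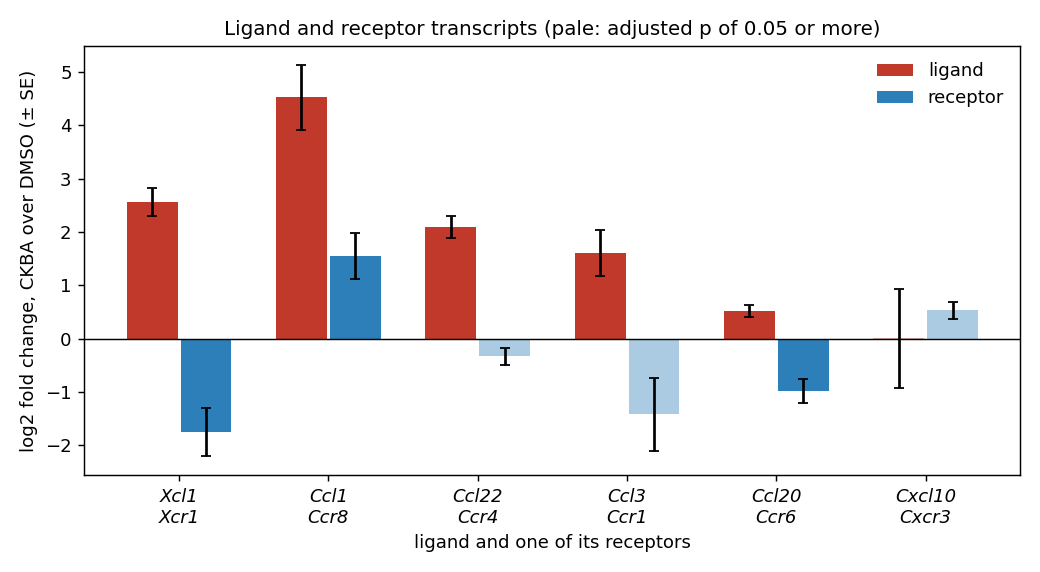
Fitted log2 fold change of CKBA over DMSO (vertical axis, bars ± SE) for 6 chemokine genes and, beside each, a receptor of that chemokine. Pale bars mark genes with an adjusted p of 0.05 or more, and for Xcl1 and Ccl20 the ligand was higher and the receptor lower.

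The transcripts of the matching receptors moved in both directions. Of 7 receptor genes 6 were tested, and 1 rose and 2 fell, with a median log2 fold change of -0.66 (7.86% of all tested genes were higher and 9.23% lower). Ccr6, the receptor of Ccl20 and a TH17 surface marker, fell from 42.5 ± 8.40 to 21.4 ± 6.53 CPM, by 0.99 on the log2 scale (edgeR adjusted p = 0.0225), while its ligand was higher. Xcr1 was low in both groups and fell from 1.19 ± 0.514 to 0.346 ± 0.0516 CPM (edgeR adjusted p = 0.0323). It passed the filter on low counts through its DMSO libraries alone, so its place among the called receptors follows in part from the filter. Ccr8, the receptor of Ccl1, rose with its ligand, from 20.9, 22.8 and 60.1 CPM to 85.2, 74.6 and 144 CPM (fitted log2 difference 1.55 ± 0.42, edgeR adjusted p = 0.0419).

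Ccr4, Cxcr3 and Ccr1 did not pass the test. Ccr4, the receptor of Ccl17 and Ccl22, averaged 138.7 ± 5.05 CPM in the DMSO libraries and 109.8 ± 24.7 CPM in the CKBA libraries, and Cxcr3 averaged 6.04 ± 0.258 and 8.72 ± 1.07 CPM (edgeR adjusted p = 0.174 and 0.0578, mean ± SD, n = 3 per group). With the replicate block both passed, Ccr4 as lower and Cxcr3 as higher (edgeR adjusted p = 0.0461 and 0.0401). Ccr1 stood at 1.42 ± 1.09 and 0.530 ± 0.275 CPM, and Ccr3 was too low to test. Single calls depended on the libraries. Ccr6 lost its call without replicate 1 or 2 of either group (edgeR adjusted p up to 0.101), Xcr1 without the same 4 libraries (up to 0.143), and Ccr8 without any library except DMSO replicate 3 (up to 0.193).

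Of 23 transcription factors known to act on chemokine genes, all were tested, 3 rose and 5 fell, where 7.86% of all tested genes were higher and 9.23% lower, and their median log2 difference was 0.12. Rora, the gene of a nuclear receptor of TH17 cells, had 154, 148 and 129 CPM with DMSO and 67.4, 70.8 and 98.7 CPM with CKBA. The groups did not overlap, and it fell by 0.86 ± 0.15 on the log2 scale. Irf4 and the AP-1 subunit gene Fosl2 fell by 0.73 ± 0.09 and 1.42 ± 0.19. The adjusted p of Rora, Irf4 and Fosl2 were 0.00915, 0.00244 and 0.00317 in edgeR, and these 3 calls held whichever library was left out. With replicates 1 and 2 summed none of the 3 was called (adjusted p = 0.177, 0.122 and 0.0904 in edgeR). Those that rose were the NF-κB subunit gene Nfkb2 at 0.29 on the log2 scale and, chosen for mention by their values, Nfkb1 at 0.32 and Eomes, a T-box factor of cytotoxic cells, at 2.23. None of these 3 was called without replicate 1 or without replicate 2 of either group. The remaining factors that fell, also chosen for mention by their values, were Nfatc3 and Stat3. Their log2 fold changes were -0.25 and -0.29 (edgeR adjusted p = 0.0341 and 0.037), and neither was called without CKBA replicate 1 or 2. Tbx21, the gene of the TH1 factor T-bet, had 6.20, 5.79 and 9.27 CPM with DMSO and 12.0, 12.3 and 8.87 CPM with CKBA and did not pass (edgeR adjusted p = 0.0897).

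Among 11995 tested genes with a curated symbol, those nearest to Xcl1 in pattern over the 6 libraries, by the root mean square difference of centred log2 CPM, were Slc1a4, a carrier of neutral amino acids, Pycr1, an enzyme of proline synthesis, and Asns, asparagine synthetase, at 0.13, 0.19 and 0.24. Nearest to Ccl22 were Tmeff1, Pck2 and Nrep, at 0.12, 0.14 and 0.20. Pck2 encodes the mitochondrial form of phosphoenolpyruvate carboxykinase. For Ccl1 they were Chdh, Il1a, which encodes interleukin-1α, and Wnt10b, a Wnt ligand gene, at 0.82 to 0.98, a looser likeness at its low counts. For Ccl3 they were Sulf2, Pgf and Shb, for Ccl4 Podxl, Aebp1 and Slc2a2, and for Ccl20 Dpy19l4, Ero1lb and Pde7a, at 0.05 for each of the last 3. Among the chemokine genes themselves, Ccl22 and Xcl1 were the closest pair, at 0.30, ahead of Ccl5 and Ccl20 at 0.34 and Ccl3 and Ccl4 at 0.38. The 6 libraries form 2 groups, so a shared difference between the groups enters this measure. It is also not scaled, so genes that vary little lie close whatever their pattern. Ccl5 and Ccl20 differed in sign in replicate 2, at log2 ratios of -0.38 and 0.62.

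Markers of other cells that can make these chemokines were examined beside them. For comparison, 7.86% of all tested genes were called higher and 9.23% lower. B cell markers were highest in CKBA replicates 1 and 2, as were Xcl1, Ccl22, Ccl3, Ccl4, Ccl9 and Ccl17. All 6 were tested, Ms4a1 alone passed, as higher, and their summed level was 31.0, 31.9 and 25.8 CPM in DMSO replicates 1 to 3 and 59.8, 60.3 and 13.0 CPM in CKBA replicates 1 to 3. In replicate 3 the log2 ratios of CKBA to DMSO were 1.69 for Xcl1, 1.50 for Ccl22, 0.94 for Ccl3 and 0.33 for Ccl4. They were 3.35 for Ccl9 and 2.54 for Ccl17, each from 1 count with DMSO. The part of B cells in the values of these chemokine genes was not tested. Of the 10 T cell markers, 3 fell and 0 rose, with a sum of 3460 to 3662 CPM with DMSO and 2877 to 3123 CPM with CKBA. Of 15 dendritic cell and macrophage markers, 9 stayed under 1 CPM in every library, among them Cd209a at 0 and Clec9a, Csf1r, Cd14 and Adgre1. The other 6 were tested, and Zbtb46 alone passed, as higher. Batf3 stood at 5.65 to 11.8 CPM over the libraries, Flt3 at 2.26 to 6.08 and Cd68 at 2.57 to 4.61. Itgax, Lyz2 and Zbtb46 ranged from 0.895 to 4.10 CPM. The 15 markers summed to 17.6 to 26.5 CPM with DMSO and 23.9 to 27.1 CPM with CKBA. The part of such cells in the Ccl22 and Ccl17 values was not tested.

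Markers of cells known for Xcl1, Ccl4 and Ccl5 were also examined, and the part of such cells in these values was not tested. The shares over all tested genes, 7.86% higher and 9.23% lower, apply here too. The 6 NK cell markers summed to 2.21 to 6.00 CPM with DMSO and 1.52 to 3.36 CPM with CKBA. Of them 5 stayed under 1 CPM throughout and were too low to test, and the 1 tested, Klre1, was not called. The CD8 T cell markers Cd8a and Cd8b1 summed to 35.2 to 45.7 CPM with DMSO and 27.3 to 32.1 CPM with CKBA, and Cd8a passed as lower. The γδ T cell markers summed to 43.2 to 60.1 and 40.5 to 52.8 CPM, with 0 of 4 tested called. Mast cell and basophil markers summed to 11.2 to 14.6 and 10.4 to 26.0 CPM, nearly all of it from Kit. Among 6 neutrophil markers only Ly6g was above 1 CPM, at 63.3, 63.3 and 2.35 CPM with DMSO and 0 with CKBA. Ly6g alone was tested, having passed the filter through its DMSO libraries, and was called lower (edgeR adjusted p = 0.0207). The fibroblast and platelet lists stayed under 5 CPM in sum.

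The 3′ UTRs of the chemokine genes were searched for ATTTA, the core of the AU-rich elements through which proteins such as tristetraprolin destabilize cytokine mRNAs. In GENCODE M21 annotation, Ccl20 held 9 of these pentamers in 1050 bases, Ccl3 5 in 409, Ccl9 5 in 2465 and Cxcl10 3 in 996. Ccl4 and Ccl22 held 2 each, Xcl1 held 1, and Ccl1, Ccl5 and Ccl17 held 0. Thus 4 of 10 had 3 or more, against 38.0% of 11783 tested genes with a 3′ UTR. Among 3′ UTRs of 200 to 700 bases, which hold those of Ccl1, Ccl3 and Ccl4, 1 of 3 had 3 or more, the Ccl3 one, against 6.84% of 2926 tested genes. Genes with and without the element were among those called higher. The stretches of 30 bases with the most pentamers (in capitals) in Ccl3, bases 139 to 168 of its 3′ UTR, and in Ccl20, bases 939 to 968, are shown as examples.

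Ccl3: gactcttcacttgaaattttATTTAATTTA

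Ccl20: tgtaaagatATTTAatgttctgtttATTTA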

How the data were processed

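RNA-seq of 6 libraries was analysed, 3 per group by their titles. The expected counts per gene were deposited as whole numbers and come from RSEM, with CASAVA 1.8 and build GRCm38, per the submitters' processing notes. Strand, aligner and annotation release were not given in the sources used here. The authors also deposited FPKM per library, used for levels between genes and in limma fits, and their own log2 fold change, p-value and FDR, used for Ccl17.

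Of 47725 genes, 13928 passed filterByExpr and entered edgeR 4.0.16 in R 4.3.3 (TMM, robust quasi-likelihood F test, Benjamini-Hochberg over all tested genes, adjusted p under 0.05). The SE is the log2 fold change divided by the root of F. Alternatives used DESeq2 1.42.0, limma 3.58.1, other filters and left-out libraries. The fits were checked on simulated counts with independent libraries. These lack the likeness of replicates 1 and 2 in the data, so the check does not cover its effect on the calls. Same-numbered libraries of the 2 groups deviated together from their group means (r = 0.22, 0.22 and 0.42 over genes for numbers 1, 2 and 3), which pairs them by the rule applied, although numbers 1 and 2 could not be told apart (0.22 and 0.21 when crossed).

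Promoters are from RefSeq (GRCm38.p6), loci and 3′ UTRs from GENCODE M21. A symbol with several rows was read from the row with most counts. Members, lists and tests were chosen with earlier results of these data known. Named were all 10 members, other ligands called or above 5 CPM, tested receptors, the 4 factors with the smallest adjusted p plus Tbx21, and the 3 nearest genes of members above 5 CPM. A receptor and a transcription factor are not reported here, and the list counts leave them out.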

Additional observations from a re-analysis of the deposited data

How the results depend on the processing

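Xcl1, Ccl1 and Ccl22 were higher with CKBA in every alternative fit, and all 3 were called in each except for Xcl1 with replicates 1 and 2 summed. Of the chemokine genes, 6 were called higher, 3 to 7 without 1 library, 2 with replicates 1 and 2 summed and 7 without replicate 3 of either group. The fits with 7 include Ccl17, which passed the filter there through its CKBA libraries alone. Ccl3 and Ccl4 were not called without the filter on low counts, and Ccl3 was not by limma on FPKM. Over all genes, 1095 were higher and 1286 lower, 251 to 1961 and 390 to 2014 without 1 library, 1922 and 2009 with the replicate block, 56 and 54 with replicates 1 and 2 summed, and 3660 and 3728 without replicate 3 of either group. For receptors, 1 higher and 2 lower became 0 to 1 and 0 to 4 without 1 library, 0 and 0 in the summed fit and 2 and 5 without replicate 3. Higher receptors numbered 2 by DESeq2, the block or limma with 0.1 added, and 0 without the filter, and lower ones 1 by limma with 0.1 or 1 added. For transcription factors, 3 higher and 5 lower became 0 to 6 and 3 to 5 without 1 library, 0 and 0 in the summed fit and 8 and 8 without replicate 3. Higher ones numbered 5 by DESeq2 and 6 with the block, and lower ones 3 without the filter. Without replicate 3 of either group 1 other ligand, Ccl25, was lower. Estimates near 0 changed sign: Cxcl10 to -0.13 with the block, -0.081 in the summed fit, -0.21 and -0.0083 by limma with 0.1 and 1 added, and between -0.54 and 0.60 without 1 library, Ccl5 to -0.046 without replicate 3 of either group, and Ccl25 between -0.55 and 0.0094 without 1 library. The causes were not tested.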
